A study of Rattus norvegicus with 24 samples.

Results

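The data on 10 genes of gp130 cytokine and STAT3 signalling were examined in the rat brain 3 months after traumatic brain injury (TBI). They were chosen by name: the ligands Clcf1 and Cntf, the receptor subunits Il6r, Cntfr, Osmr, Lifr and Il6st, the kinase Jak1, the transcription factor Stat3 and the feedback inhibitor Socs3. Each name matched 1 locus, so that 10 of the 26641 named loci in the deposited table were described. These genes, and the gene lists used below, were chosen with earlier results of these data known. The Cntf locus also carries the name of the neighbouring gene Zfp91, and reads of these genes cannot be told apart in it.

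The libraries came from adult Sprague-Dawley rats, all males according to the study's methods. In 6 rats, lateral fluid-percussion injury, a fluid pressure pulse onto the exposed dura, was given over the left parietal cortex. The 6 sham-operated controls underwent the same anaesthesia and surgery without the impact. From each of the 12 rats polyadenylated RNA of the perilesional cortex and of the ipsilateral thalamus was sequenced, which gave 24 libraries in 4 groups of 6. The sequenced TBI animals had been selected by MRI for a persistent signal around the lesion, so they do not stand for all injured rats.

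Cytokines of the interleukin-6 family signal through gp130, the shared receptor subunit encoded by Il6st. A ligand joins gp130 to a partner subunit, such as the interleukin-6 receptor, the oncostatin M receptor or the leukaemia inhibitory factor (LIF) receptor, and Janus kinases on the receptor tails phosphorylate STAT3. STAT3 then enters the nucleus and activates its targets, among them Socs3, whose protein binds gp130 and the kinases and dampens the signal. In the injured brain this pathway is best known for its part in astrocyte reactivity.

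Values are given as normalized counts, which are numbers of fragments scaled by 1 size factor per library. The libraries held between 30568903 and 54608897 fragments, and 3 fragments corresponded to 2.06 to 3.76 normalized counts. Levels of different genes are not compared with each other, since the values are not divided by transcript length. A gene was called changed when the Benjamini-Hochberg adjusted p of limma, a linear model fitted to log2(normalized count + 1) over all tested loci, was under 0.05. Fold changes are on that scale. The summed level of 7 matched cortex identity markers was 22608 to 33530 in the cortex and 2540 to 4113 in the thalamus, and that of 8 thalamus identity markers was 3877 to 4903 and 72221 to 128237, so each tissue matched its label. Choroid plexus markers were uneven. Their summed level was 451 to 107527 in the sham libraries and 464 to 1582 in the TBI libraries other than those of rat 45, which held 32838 in the cortex and 261495 in the thalamus.

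Promoter sequence is shown first for Stat3 and Osmr, the transcription factor and a receptor subunit that rose in both regions, and then for 3 other pathway genes that hold a STAT motif. Windows of 250 bases before to 50 after a transcript start were read from RefSeq (build GRCr8, a later build than that of the counts). Of the 10 genes, 7 had a window, and Cntfr, Clcf1 and Jak1 had none. In the lines for Stat3 and Osmr the last base, in capitals, is the transcript start. In the lines for Icam1, Serpina3n and Cish the capitals mark the STAT motif TTCNNNGAA, which reads the same on both strands.
Stat3, chr10:86363359-86363388, minus strand: tttccggagctgcagtttagacagggaggG
Osmr, chr2:57688561-57688590, minus strand: tcatagccggggcgcggggccgcctccacA
Icam1, chr8:27829728-27829756, plus strand: ggcgcgaggtTTCCGGGAAagtggcccca
Serpina3n, chr6:129088259-129088287, plus strand: tgagtccatgTTCCCAGAAatcatcccgt
Cish, chr8:116850831-116850860, plus strand: ggTTCTAGGAAgatgcggcTTCCGGGAAgg
None of the 7 windows (0 of 7) held TTCNNNGAA, against 8.87% of all 33469 windows of that length. The transcript starts of the Socs3, Il6r, Il6st and Lifr windows lay over 1000 bases inside the RefSeq span of their gene. The sequence before the outermost start was therefore not searched there. Among 17 STAT3 target genes with a window, 3 held the motif, namely Bcl2l1, Serpina3n and Icam1. Bcl2l1 has 4 windows. The 2 that held the motif have transcript starts 1459 and 1594 bases inside the gene span, while the outermost window held 0 matches. A gene with several windows cannot be set against the share per window. The window of Cish, an inhibitor of the same family as Socs3, held 4 matches, of which the printed stretch shows 2. A match describes letters and does not show binding.

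In the perilesional cortex, Socs3, Osmr, Il6r and Stat3 were higher in TBI animals than in controls, and the joined Cntf and Zfp91 locus was lower. All 10 genes passed the minimum mean of 10 normalized counts, and 5 of 10 were called. The share called over all 15493 tested loci was 29.2%. In the upward direction 4 of 10 were called, against 14.3% of all loci, and in the downward direction 1 of 10, against 14.9%. The median log2 fold change was 0.25 for the 10 genes and -0.01 for all loci tested.

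In the ipsilateral thalamus, Socs3, Osmr, Il6r, Stat3 and Il6st were higher in TBI animals, and none of the others was called. Clcf1 fell under the minimum mean there, so 9 of 10 genes were tested and 5 of 9 were called. The share called was 35.4% of 15564 loci in both directions and 14.5% in the upward direction, and 20.9% were called downward. The median log2 fold change of the 9 genes was 0.31 against -0.02 for all loci. Tissue was sequenced in bulk, so a change in the number of cells of a type and a change in RNA per cell cannot be told apart in any of these values.

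**Figure D1:**
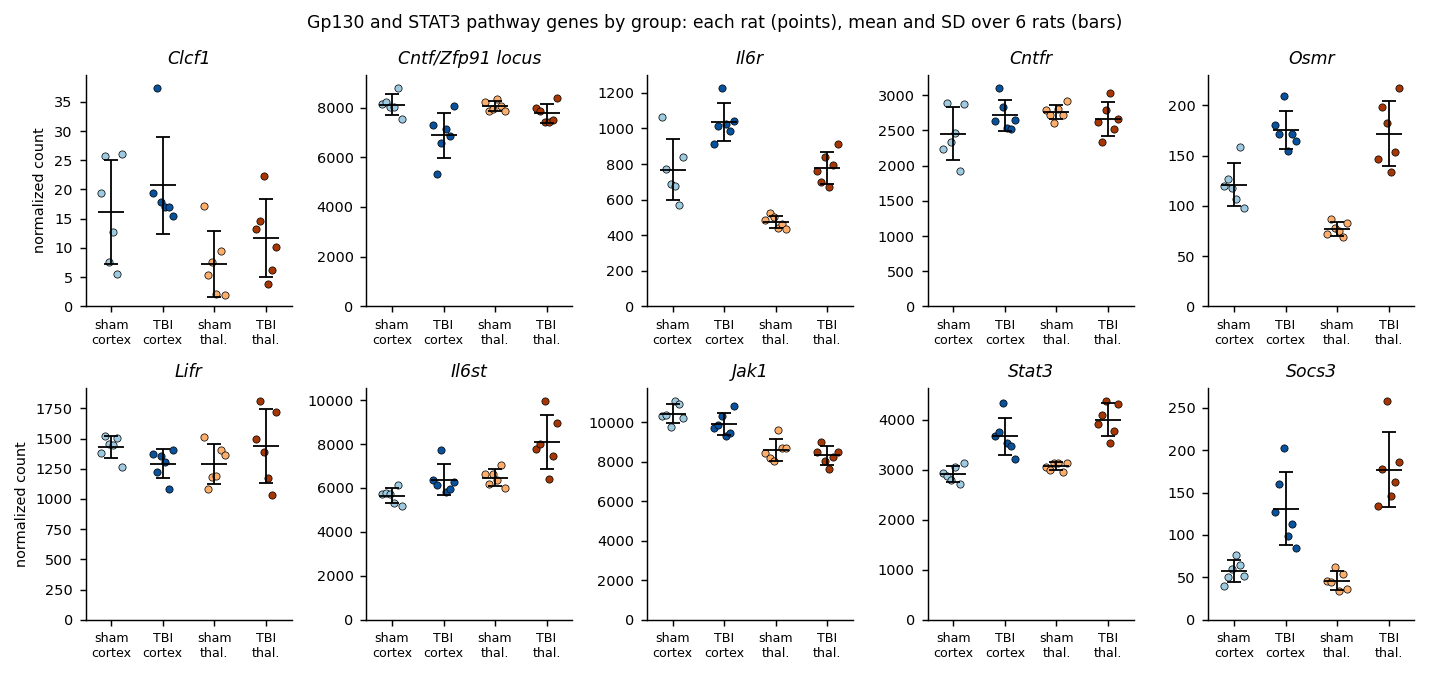
Normalized counts (vertical axes, from 0) of the 10 genes in the 4 groups, with 1 point per rat and bars for the mean and SD over 6 rats. The TBI rats lie above all sham rats of the same region for Stat3 and Socs3 in both regions and for Osmr and Il6r in the thalamus.

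The ligands were described first. Clcf1, a cytokine that acts through the ciliary neurotrophic factor (CNTF) receptor, was close to the detection floor. In the cortex it ranged from 5.59 to 26.1 normalized counts (median 16.1) in controls and from 15.5 to 37.4 (median 17.5) in TBI animals, with 1 TBI rat above every control. The difference did not pass the test (log2 fold change 0.47, SE 0.36, 95% interval -0.29 to 1.23, adjusted p = 0.351). In the thalamus it was 1.98 to 17.2 in controls (median 6.41) and 3.76 to 22.4 in TBI animals (median 11.7), and 2 control libraries held no more than 3 fragments, so no fold is given.

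The locus that joins Cntf, a survival factor for neurons and glia, to the zinc finger gene Zfp91 was the one that fell. In the cortex it ranged from 7543 to 8802 in controls (median 8082) and from 5342 to 8083 in TBI animals (median 6993), and 5 of 6 TBI rats lay below every control. This was a log2 fold change of -0.25 (SE 0.08, adjusted p = 0.0252). Without the cortex library of TBI rat 45 the adjusted p was 0.0504, and without that of sham rat 50 it was 0.0552. In the thalamus the ranges overlapped, from 7847 to 8333 in controls and from 7407 to 8381 in TBI animals (log2 fold change -0.05, 95% interval -0.14 to 0.04, adjusted p = 0.354).

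Among the receptor subunits, Osmr changed most. It encodes the oncostatin M receptor subunit that pairs with gp130. In the cortex it ranged from 97.5 to 159 in controls (median 119) and from 155 to 210 in TBI animals (median 171). The highest control, rat 50, lay within the TBI range, and 5 of 6 TBI rats were above every control. Osmr thus rose 1.45-fold in the cortex (log2 fold change 0.54, SE 0.12, adjusted p = 0.00328).
In the thalamus Osmr ranged from 69.3 to 87.1 in controls (median 76.2) and from 133 to 218 in TBI animals (median 168), with no overlap. There it rose 2.19-fold (log2 fold change 1.13, SE 0.13, adjusted p = 1.95e-05).

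Il6r encodes the subunit that binds interleukin-6 itself. In the cortex it ranged from 572 to 1067 in controls (median 728) and from 912 to 1229 in TBI animals (median 1020.4). The groups overlapped, since 1 control, rat 26, exceeded most TBI rats, and 1 of 6 TBI rats was above every control. Its log2 fold change was 0.45 (SE 0.12, adjusted p = 0.0112).
In the thalamus the groups did not overlap, with 437 to 525 in controls (median 475) and 671 to 911 in TBI animals (median 778). The log2 fold change was 0.70 (SE 0.08, adjusted p = 1.78e-05).

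Il6st, the gp130 subunit shared by the whole family, rose in the thalamus. Controls ranged there from 6011 to 7023 (median 6501) and TBI animals from 6401 to 9963 (median 7875), with 5 of 6 TBI rats above every control. The log2 fold change was 0.31 (SE 0.09, adjusted p = 0.0122). In the cortex the corresponding ranges were 5174 to 6137 (median 5744) and 5808 to 7745 (median 6210), and the difference missed the threshold (log2 fold change 0.17, 95% interval 0.03 to 0.31, adjusted p = 0.0616). It passed with TMM scaling (adjusted p = 0.0375) and upper quartile scaling (adjusted p = 0.0359), without the cortex library of sham rat 50 (adjusted p = 0.0462), and without that of TBI rat 52 (adjusted p = 0.0458).

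Lifr, the LIF receptor subunit that also serves CNTF, was not called in either region. In the cortex it ranged from 1268 to 1519 in controls (median 1450) and from 1085 to 1408 in TBI animals (median 1331), with 2 of 6 TBI rats below every control (log2 fold change -0.15, 95% interval -0.29 to -0.003, adjusted p = 0.116). In the thalamus the TBI rats spread widely, from 1029 to 1812 (median 1444), around the controls at 1083 to 1516 (log2 fold change 0.14, 95% interval -0.14 to 0.42, adjusted p = 0.443).
Osmr and Lifr are neighbours on chromosome 2, where the files list them 273081 bases apart with no other named locus between them (0 loci). Set against Lifr within each library, Osmr took 7.39 to 10.5 normalized counts per 100 of Lifr in control cortex and 11.7 to 15.8 in TBI cortex. In the thalamus the ratio was 4.72 to 8.04 in controls and 9.82 to 14.9 in TBI animals, so it did not overlap between TBI and control rats of either region. This ratio combines values already given and adds no test.

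Cntfr, the CNTF receptor subunit that has no signalling tail of its own, was not called in either region. Cortex controls ranged from 1928 to 2885 (median 2397) and TBI animals from 2525 to 3108 (median 2643), with log2 fold change 0.16 (95% interval -0.04 to 0.35, adjusted p = 0.207). Thalamus controls ranged from 2612 to 2922 (median 2753) and TBI animals from 2333 to 3038 (median 2643), with log2 fold change -0.06 (95% interval -0.18 to 0.07, adjusted p = 0.482).

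Jak1, the kinase that gp130 receptors depend on most, was not called either. Cortex values were 9757 to 11092 in controls and 9319 to 10849 in TBI animals (log2 fold change -0.07, 95% interval -0.18 to 0.03, adjusted p = 0.261). Thalamus values were 8031 to 9606 in controls and 7651 to 9016 in TBI animals (log2 fold change -0.05, 95% interval -0.16 to 0.06, adjusted p = 0.49). Among the 10 genes, Jak1 had the narrowest interval in the cortex.

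Stat3 rose by a small and even step in both regions. In the cortex controls ranged from 2716 to 3148 (median 2915) and TBI animals from 3223 to 4343 (median 3612). In the thalamus controls ranged from 2962 to 3145 (median 3099) and TBI animals from 3539 to 4381 (median 4008). Every TBI rat lay above every control in both regions. The log2 fold change was 0.32 in the cortex (SE 0.06, adjusted p = 0.0019) and 0.38 in the thalamus (SE 0.05, adjusted p = 0.000103), or 1.25-fold and 1.30-fold.

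Socs3 showed the largest fold changes of the 10 genes. In the cortex controls ranged from 39.8 to 76.6 (median 55.2) and TBI animals from 84.5 to 202 (median 120.2). In the thalamus controls ranged from 34.2 to 62.6 (median 45.2) and TBI animals from 134 to 258 (median 170). No TBI rat overlapped with a control in either region. The log2 fold change was 1.15 in the cortex (SE 0.20, adjusted p = 0.000855) and 1.92 in the thalamus (SE 0.18, adjusted p = 3.45e-06), or 2.22-fold and 3.78-fold.

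Groups without overlap, with all TBI rats higher, were found for 2 of 10 genes in the cortex, against 7.02% of all loci, and for 4 of 9 tested genes in the thalamus, against 7.46%. Socs3 thus rose relative to Stat3, a ratio that restates the values above and adds no test. Per 100 normalized counts of Stat3, the cortex held 1.35 to 2.51 of Socs3 in controls and 2.62 to 4.65 in TBI animals. The thalamus held 1.09 to 1.99 in controls and 3.42 to 5.89 in TBI animals.

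**Figure D2:**
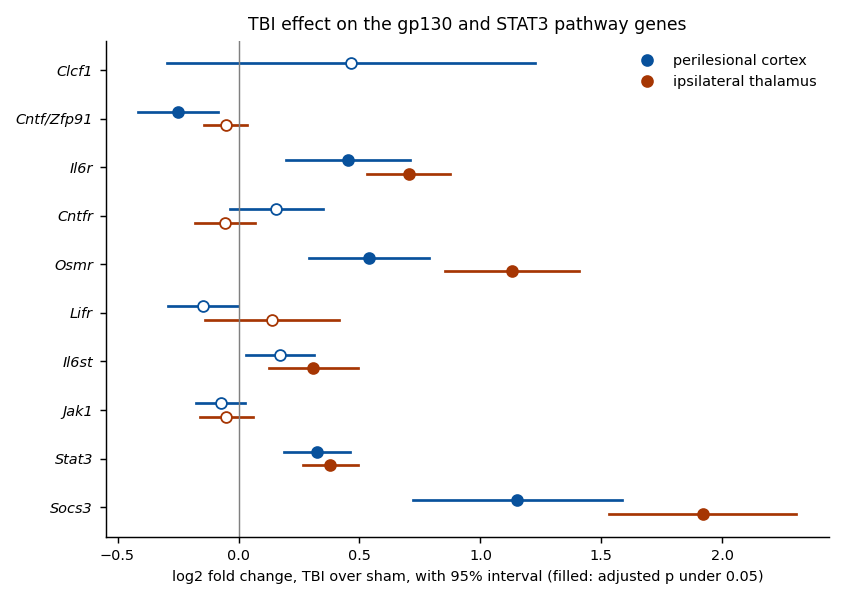
Log2 fold change of TBI over sham animals (horizontal axis) with its 95% interval from limma for each of the 10 genes, in the perilesional cortex and the ipsilateral thalamus. Filled points passed the adjusted p threshold. Socs3 lies farthest to the right in both regions, and the Cntf and Zfp91 locus is the one filled point left of 0. Clcf1 has no thalamus point because it was not tested there.

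Rat 45 had the highest Stat3, Socs3 and Il6st of the TBI animals in both regions. Its Socs3 was 202 in the cortex and 258 in the thalamus, and its Il6st was 7745 and 9963. Among TBI animals it is also the rat with the high choroid plexus values. Sham animals also reached high values, 107527 in the thalamus of rat 50 and 23849 in the cortex of rat 26. The part of choroid plexus tissue in the levels of these genes was not tested. With rat 45 left out in both regions, 4 genes were called in the cortex, the joined Cntf locus being lost, and 5 in the thalamus.

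Markers of other cells moved in the same libraries. All 12 microglia and macrophage markers were measured, and 11 were higher in TBI cortex and 12 in TBI thalamus. Their summed level was 16254 to 17189 in control cortex and 22633 to 25294 in TBI cortex. In the thalamus it was 17296 to 22160 in controls and 35231 to 44751 in TBI animals. Of 10 astrocyte markers, 4 were higher and 2 lower in the cortex, with summed levels of 365791 to 390405 in controls and 342315 to 397481 in TBI animals. In the thalamus 4 were higher and none lower, with 273206 to 297742 in controls and 317031 to 357392 in TBI animals. Of 10 neuron markers, 7 were lower in the cortex and 8 in the thalamus, with summed levels of 389386 to 420327 in control cortex and 274034 to 364334 in TBI cortex. In the thalamus they were 260605 to 312031 in controls and 177882 to 220699 in TBI animals. Endothelial markers were higher for 1 of 8 in the cortex and 4 of 8 in the thalamus, and T lymphocyte markers for 1 of 4 tested and 1 of 2 tested. The summed level of the 6 listed T lymphocyte markers did not overlap, with 790 to 1016 in control cortex and 1368 to 1666 in TBI cortex. In the thalamus it was 763 to 1134 in controls and 2581 to 4228 in TBI animals. The untested T lymphocyte markers lay under the minimum mean, so this sum rests mostly on the tested ones. With 1 marker called in each region, the sum does not show a rise of the whole list. Oligodendrocyte markers were higher for 2 of 7 and 1 of 7, and no choroid plexus (0 of 6) or erythroid marker (0 of 4) was called in either region. Counts of 2 of 10 astrocyte markers lower and 1 of 8 endothelial markers higher in the cortex lie near the shares of all loci. So does that of 1 of 7 oligodendrocyte markers in the thalamus. No marker of these lists was at 0 throughout a group. The part of these marker values in the levels of the pathway genes was not tested.

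The next comparison asked in which genes the TBI effect differed between thalamus and cortex. It was tested as the difference of both log2 fold changes in a fit of all 24 libraries. Osmr was the one gene called, with a log2 fold change larger by 0.59 in the thalamus (SE 0.17, adjusted p = 0.0375). That is 1 of 10 genes against 7.26% of 15678 loci, so the count itself does not set these genes apart. The call was lost when any of 12 libraries was left out, with adjusted p up to 0.0708, and without the filter on low values (adjusted p = 0.0586). Those were the cortex libraries of TBI rats 24, 52, 56 and 63 and sham rats 26, 32 and 50, and the thalamus libraries of TBI rats 24, 45 and 63 and sham rats 26 and 50. The difference itself remained between 0.51 and 0.66 in all 24 such fits. A higher thalamus-minus-cortex difference was also called for 8 of 12 microglia and macrophage markers and 2 of 10 astrocyte markers. In both lists 0 were lower, and 0 of 10 neuron markers were called. The part of these markers in the Osmr difference was not tested.

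For Socs3 the difference was 0.77 (SE 0.28, 95% interval 0.18 to 1.35, adjusted p = 0.102), and it passed only without the cortex library of TBI rat 45 (0.90, adjusted p = 0.0428). For Stat3 it was 0.06 (95% interval -0.12 to 0.23), for Il6r 0.25 (95% interval -0.06 to 0.57), and for Il6st 0.14 (95% interval -0.10 to 0.37). None of the last 3 passed the test, and their intervals held 0.

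The regions already differed in sham animals. There 6 of 10 genes were called while 61.4% of all loci were, so this count lies at the background. In the thalamus 2 were higher, against 33.5% of all loci, and 4 lower, against 27.9%. Groups without overlap, with the thalamus lower, were found for 3 of 10 genes, namely Osmr, Il6r and Jak1, against 19.1% of all loci. Osmr was lower in the thalamus of controls by 0.63 on the log2 scale (SE 0.12, adjusted p = 7.29e-05), with no overlap. In TBI animals its log2 difference was -0.04 (95% interval -0.29 to 0.21, adjusted p = 0.788). The order of the Osmr groups by median was thus sham thalamus, sham cortex, TBI thalamus and TBI cortex, and the last pair did not differ beyond its spread.

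Il6r was lower in the thalamus in both states, by 0.66 in controls (SE 0.11, adjusted p = 6.81e-06) and by 0.41 in TBI animals (SE 0.11, adjusted p = 0.00179). All thalamus values lay below all cortex values of the same state, although in TBI animals the gap was narrow, from 911 to 912. Jak1 followed the same order, lower by 0.28 in controls (SE 0.05, adjusted p = 2.05e-05) and by 0.25 in TBI animals (SE 0.05, adjusted p = 7.05e-05). Il6st had the opposite order, higher in the thalamus by 0.20 in controls (SE 0.08, adjusted p = 0.0353) and by 0.33 in TBI animals (SE 0.08, adjusted p = 0.000808). Its call in controls was lost without the cortex library of rat 38 or 55 or the thalamus library of rat 26, 34 or 50 (adjusted p up to 0.0806).

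In TBI animals 4 of 10 genes were called between the regions, against 60.6% of all loci. Il6st and the joined Cntf locus were higher in the thalamus, against 32.7% of all loci, and Il6r and Jak1 were lower without overlap, against 27.9% lower and 16.6% lower without overlap. The joined Cntf locus differed by 0.18 (SE 0.06, adjusted p = 0.0157). For Socs3 the log2 difference was 0.46 (SE 0.20, adjusted p = 0.0502), and for Stat3 0.13 (SE 0.06, adjusted p = 0.0626). With the rat as a block, since both regions came from the same animals, both passed, at adjusted p = 0.0326 and adjusted p = 0.0418, and 6 genes were called. Socs3 also passed with upper quartile scaling (adjusted p = 0.0437), a pseudocount of 5 (adjusted p = 0.0457), limma-voom weights (adjusted p = 0.0253), rat 45 left out (adjusted p = 0.0308) and in 8 fits without a single library (adjusted p down to 0.0105). Stat3 also passed with upper quartile scaling (adjusted p = 0.0336), rat 45 left out (adjusted p = 0.0179) and in 3 fits without a single library (adjusted p down to 0.0061). Clcf1 was among the genes called lower in the thalamus of controls (adjusted p = 0.0282), but it passed the minimum mean through its cortex values and lay near the floor in the thalamus, so no fold is given. That call was lost without the cortex library of sham rat 26, 32 or 55 or the thalamus library of sham rat 38 or 55 (adjusted p up to 0.0836). In TBI animals Clcf1 was not called (adjusted p = 0.0909), except without the thalamus library of rat 45 (adjusted p = 0.0407). Cntfr was higher in the thalamus of controls by 0.18 (adjusted p = 0.0477). Its call was lost without any of 17 of the 24 libraries, and adjusted p was highest, 0.165, without the cortex library of sham rat 50. It was also lost with upper quartile scaling (adjusted p = 0.0505), without the filter on low values (adjusted p = 0.0604) and with rat 45 left out in both regions (adjusted p = 0.0527).

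**Figure D3:**
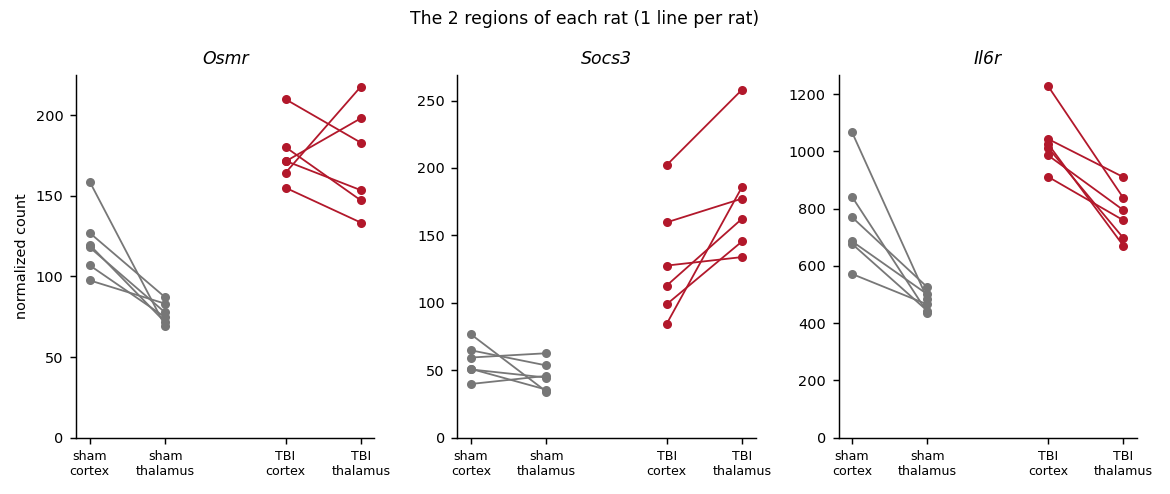
Normalized counts (vertical axes, from 0) of Osmr, Socs3 and Il6r in both regions of each rat, with 1 line per rat, sham animals in grey and TBI animals in red. Osmr and Il6r fall from cortex to thalamus in all 6 sham rats, Socs3 is higher in the thalamus in all 6 TBI rats, and Osmr is higher there in 2 of 6 TBI rats.

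Within single animals the same orders appeared. Osmr was lower in the thalamus than in the cortex in 6 of 6 sham rats and in 4 of 6 TBI rats. Socs3 was higher in the thalamus in 6 of 6 TBI rats, with log2 differences from 0.07 to 1.13, and in 2 of 6 sham rats. Il6st was higher in the thalamus in all 6 rats of both states. These counts restate the comparison of regions and add no test.

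The remaining genes of the pathway were taken from 4 lists. Among 12 other ligands and receptors, 8 lay under the minimum mean in both regions, and 4 were tested. Il6, which gives the family its name, did not exceed 7.35 normalized counts in any library and was at 0 in 7 of 24. Osm, the ligand of the receptor encoded by Osmr, ranged from 1.16 to 3.43 in control cortex and from 3.57 to 5.95 in TBI cortex, without overlap. In the thalamus it ranged from 0 to 7.91 in controls and from 4.13 to 12.2 in TBI animals. Most of these values lie near 3 fragments, and no test was made on them.

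Ctf1, which encodes the ligand cardiotrophin 1, rose in both regions. In the cortex it ranged from 61.7 to 84.9 in controls and from 95.3 to 145 in TBI animals, without overlap (log2 fold change 0.65, SE 0.12, adjusted p = 0.00123). In the thalamus it ranged from 55.4 to 101 in controls and from 83.6 to 172 in TBI animals (log2 fold change 0.59, SE 0.19, adjusted p = 0.0261), and that call was lost without the library of TBI rat 45 or 63 or of sham rat 32 or 55 (adjusted p up to 0.0643). Il11ra1, an interleukin-11 receptor subunit, rose in the cortex (log2 fold change 0.36, SE 0.07, adjusted p = 0.00145) and was not called in the thalamus (0.09, adjusted p = 0.609). Ebi3, a subunit of interleukins 27 and 35, fell by 0.44 in the thalamus on the log2 scale (SE 0.11, adjusted p = 0.00739), with all TBI rats below all controls. Of the 4 genes, 2 rose in the cortex (14.3% of all loci did), and 1 rose and 1 fell in the thalamus (14.5% and 20.9%). Their median was 0.22 in the cortex, against -0.01 for all loci, and 0.02 in the thalamus, against -0.02.

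All 14 other kinases, STATs and adaptors were tested. In the cortex 6 rose and 1 fell, against 14.3% and 14.9% of all loci, with a median log2 fold change of 0.10 against -0.01. In the thalamus 10 rose and 1 fell, against 14.5% and 20.9% of all loci, with a median of 0.27 against -0.02. Shc1, an adaptor that links receptors to the Ras pathway, ranged from 612 to 824 in control cortex and from 918 to 1108 in TBI cortex (log2 fold change 0.60, SE 0.08, adjusted p = 8.64e-05). In the thalamus its log2 fold change was 0.70 (SE 0.08, adjusted p = 1.46e-05). Jak3, a kinase of receptors on lymphocytes and other immune cells, rose by 0.54 in the cortex (adjusted p = 0.00473) and by 0.33 in the thalamus (adjusted p = 0.0184). Stat5a, a transcription factor of the same family as Stat3, rose by 0.45 (adjusted p = 0.00518) and 0.42 (adjusted p = 0.00169).

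Stat6, best known as the transcription factor of interleukin-4 signalling, rose in the thalamus, with 362 to 439 in controls and 560 to 750 in TBI animals (log2 fold change 0.67, SE 0.08, adjusted p = 2.93e-05). In the cortex its log2 fold change was 0.12 (SE 0.08, adjusted p = 0.267), and the difference between the regions passed the test (0.55, SE 0.11, adjusted p = 0.00398). Stat6 was named for its thalamus effect, so that test reuses values that chose it. Jak2, a Janus kinase also bound by gp130, was the other gene of that list with a called difference between regions (0.43, SE 0.08, adjusted p = 0.00119). It was named after its values were seen. Its log2 fold change was 0.31 in the thalamus (adjusted p = 0.000893) and -0.12 in the cortex (adjusted p = 0.11). Called differences between regions were thus 2 of 14 in that list, against 7.26% of all loci.

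Of 14 other inhibitors of the pathway, 12 were tested. In the cortex 1 rose and 2 fell, near the 14.3% and 14.9% of all loci, with a median of -0.03 against -0.01. In the thalamus 1 rose and 5 fell, against 14.5% and 20.9% of all loci, with a median of -0.18 against -0.02. Socs2, a suppressor best known for growth hormone signalling, fell without overlap in both regions, as 5.45% of all loci did in the cortex and 10.7% in the thalamus, with 327 to 378 in control cortex and 281 to 314 in TBI cortex (log2 fold change -0.23, SE 0.06, adjusted p = 0.0119). In the thalamus its log2 fold change was -0.39 (SE 0.08, adjusted p = 0.00112). Socs5 fell by 0.21 in the cortex (SE 0.04, adjusted p = 0.00233) and by 0.26 in the thalamus (SE 0.05, adjusted p = 0.000733).
Cish, whose promoter stretch is printed above, ranged from 82.6 to 137 in control thalamus and from 52.6 to 75.2 in TBI thalamus (log2 fold change -0.80, SE 0.15, adjusted p = 0.000751). In the cortex its ranges overlapped (log2 fold change -0.44, SE 0.20, adjusted p = 0.11), and it passed there without the library of sham rat 50 (-0.61, adjusted p = 0.0115). The one inhibitor that rose was Ptpn6, a phosphatase of blood cells and microglia, by 0.84 in the cortex (SE 0.08, adjusted p = 1.05e-05) and by 1.19 in the thalamus (SE 0.08, adjusted p = 1.65e-07).

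**Figure D4:**
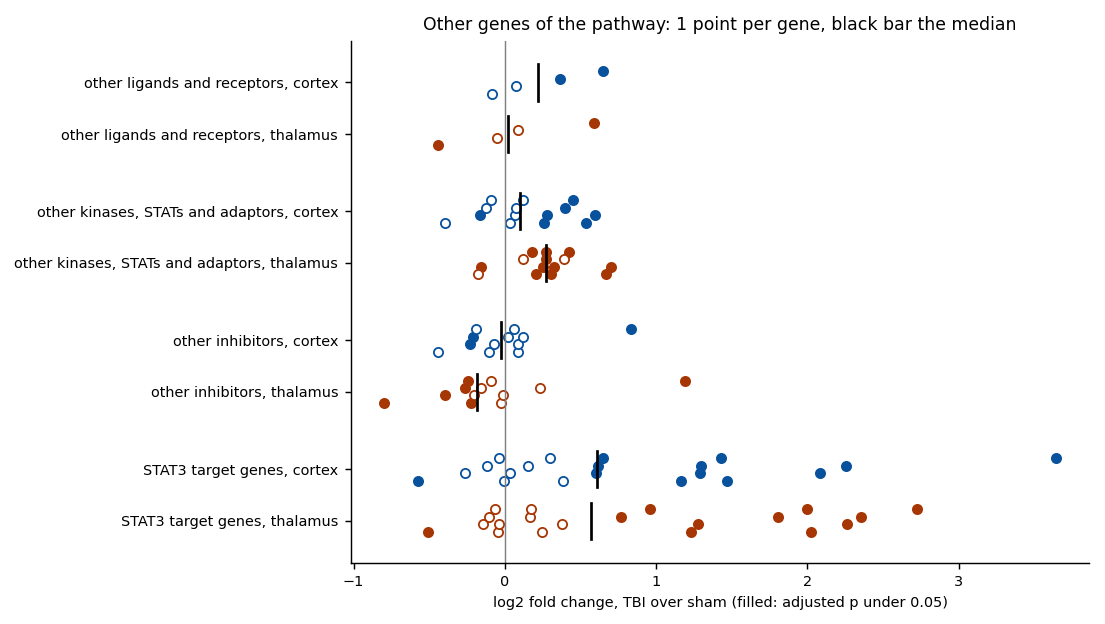
Log2 fold change of TBI over sham animals (horizontal axis) for the tested genes of the 4 other pathway lists, with 1 point per gene, filled where adjusted p was under 0.05, and a black bar at the median. The medians of the STAT3 target genes are 0.61 in the cortex and 0.57 in the thalamus, and those of the inhibitors are -0.03 and -0.18.

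Of 21 genes listed as STAT3 targets, 20 were tested. In the cortex 11 rose and 1 fell, where 14.3% and 14.9% of all loci did, with a median log2 fold change of 0.61 against -0.01. In the thalamus 10 rose and 1 fell, where 14.5% and 20.9% of all loci did, with a median of 0.57 against -0.02. The list holds many genes that other factors also control. It was drawn from general knowledge with earlier results of these data known, so its excess over all loci is not a test. Vegfa, a growth factor for blood vessels, was the one that fell, by 0.57 in the cortex (adjusted p = 0.000337) and by 0.51 in the thalamus (adjusted p = 4.08e-05). It was named after its values were seen.

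Gfap, the intermediate filament of reactive astrocytes, ranged from 10322 to 15037 in control cortex and from 38135 to 74737 in TBI cortex. In the thalamus it ranged from 16342 to 27221 in controls and from 94239 to 116667 in TBI animals. Gfap had a log2 fold change of 2.26 in both regions (SE 0.14 and 0.12, adjusted p = 4.85e-07 and 2.33e-08). Vim, another filament of reactive astrocytes, had log2 fold changes of 1.47 (adjusted p = 2.33e-05) and 1.28 (adjusted p = 0.000302).
A2m, a protease inhibitor of the acute phase in rats, ranged from 5.66 to 17.0 in control cortex and from 58.3 to 184 in TBI cortex (log2 fold change 3.64, SE 0.29, adjusted p = 2.02e-06). Thalamus values ranged from 77.2 to 136 and from 431 to 687 (log2 fold change 2.36, SE 0.15, adjusted p = 1.22e-07). Cd44, a receptor for hyaluronan, had log2 fold changes of 2.08 (adjusted p = 7.90e-07) and 1.80 (adjusted p = 2.15e-07).

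Timp1, an inhibitor of matrix metalloproteinases, ranged from 132 to 197 in control cortex and from 259 to 575 in TBI cortex (log2 fold change 1.16, SE 0.16, adjusted p = 0.000157). Thalamus values ranged from 38.9 to 74.5 and from 248 to 645 (log2 fold change 2.73, SE 0.22, adjusted p = 8.12e-07). Timp1 and A2m were the genes of the list whose TBI effect differed between regions, in opposite directions. Of the 20 tested targets, 1 had a higher and 1 a lower difference called, against 7.26% of all loci in both directions. The effect on Timp1 was larger in the thalamus by 1.56 (SE 0.29, adjusted p = 0.00147), and that on A2m was smaller there, with a difference of -1.29 (SE 0.34, adjusted p = 0.0227). Timp1 was named for its thalamus effect, so its test reuses values that chose it. The A2m call was lost with a pseudocount of 5 (-0.89, adjusted p = 0.0782) and with limma-voom weights (-1.35, adjusted p = 0.0704).
Icam1, an adhesion molecule whose promoter stretch is printed above, was higher by 0.62 in the cortex (adjusted p = 0.00052) and by 0.96 in the thalamus (adjusted p = 0.000446). Serpina3n, a protease inhibitor of reactive astrocytes, was higher by 0.65 in the cortex (adjusted p = 0.0251) and was not called in the thalamus (0.38, adjusted p = 0.134). Bcl2l1, an inhibitor of apoptosis, had log2 fold changes of -0.01 (adjusted p = 0.977) and -0.04 (adjusted p = 0.718). The genes Icam1, Serpina3n and Bcl2l1 are named for the motif in their windows and not for their values.

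Variation between rats of 1 group was compared over the 24 libraries after the mean of each group was taken off. The points share animals and libraries, so the correlations are descriptions. The highest values among the 10 genes were Pearson r = 0.65 between Osmr and Il6st, r = 0.59 between Socs3 and Il6st, and r = 0.57 between Stat3 and Socs3. Over 15677 other loci, the nearest to Stat3 were Ano6 (r = 0.81), Des (r = 0.80) and Rhbdd1 (r = 0.79). Those nearest to Socs3 were Erbb2 (r = 0.85), Bcat2 (r = 0.81) and Ajuba (r = 0.81), and those nearest to Osmr were Lcp1 (r = 0.74), Havcr2 (r = 0.73) and Nudt6 (r = 0.71).

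The positions of the 10 loci are given as listed in the deposited annotation. The labels name the build Rnor_5.0, the study's methods also name RGSC3.4, and whether starts are counted from 0 or 1 is not given. Stat3 spans 88584599 to 88638724 and Socs3 106611467 to 106613681 on chromosome 10. On chromosome 2 lie Il6st at 63321418 to 63361404, Osmr at 75849942 to 75892070, Lifr at 76165151 to 76229675 and Il6r at 208629065 to 208677779. Clcf1 at 226334037 to 226378374 and the joined Cntf locus at 236750724 to 236792548 lie on chromosome 1, and Cntfr at 62566132 to 62604727 and Jak1 at 123786081 to 123973701 on chromosome 5. Each value counts the fragments of a whole locus.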

How the data were processed

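Polyadenylated RNA of 24 libraries (12 rats, 2 regions, groups of 6) was analysed. Per the labels and the study's methods, the authors aligned reads with TopHat2 2.0.11 and Bowtie2 2.2.2 and assembled transcripts with Cufflinks 2.2.1. Cuffdiff then calculated expression values and tested differences between groups. The deposited signal is the fragment count per locus over a size factor, with no correction for transcript length. Steps of single fragments can be read in it, but no count model was run. No table column was left without a sample.

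Here, named loci with a mean of at least 10 normalized counts in the libraries of a fit were tested with limma's lmFit and its eBayes with a mean trend (limma 3.58.1, R 4.3.3) on log2(normalized count + 1). Adjustment was Benjamini-Hochberg over all tested loci, and adjusted p under 0.05 was called. Loci without a name, 37.1% of 42334, held 1.90 to 2.23% of each library and were left out. Each region was fitted with its 12 libraries. Contrasts between regions used all 24 without a block. Replicates were separate rats, and libraries of 1 rat were paired by animal: over 12 rats, deviations from the group means correlated between regions with a median of 0.19, and 10 of 12 were over 0.1. The rat as a block was an alternative. Others changed the scaling, filter, pseudocount (0.1 or 5), weights and threshold, or left out single libraries. Leaving out rat 45 was chosen after seeing the data. The fit was tested on simulated data.

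The 10 genes and all lists were chosen with earlier results of these data known, and the pathway lists were drawn from general knowledge. Named were the 10 genes, up to 3 called genes with the largest fold change per pathway list and region, and the 3 loci most correlated with Stat3, Socs3 and Osmr. Of the listed genes, Ptpn2, Mcl1 and the markers Mbp and Neurod2 matched no locus name. Promoter windows came from RefSeq (GRCr8).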

Additional observations from a re-analysis of the deposited data

Results flagged for a closer look

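In all, 4 differences between regions in the TBI effect passed the test of the difference itself among the genes named by rule: Osmr (0.59, thalamus minus cortex, log2), Stat6 (0.55), Timp1 (1.56) and A2m (-1.29). Their values in each region are given above.

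A rat far from the other 5 of its group (Dixon's ratio above 0.625, the critical value for 6 samples) was found in 10 of 100 groups over 25 genes. The critical value flags about 1 in 20 groups of independent, normally distributed values. The groups here share rats, so the 10 flagged values are not read as an excess. In the TBI cortex these were Il6st (highest at rat 45, 7745 normalized counts), Clcf1 (highest at rat 24, 37.4), Stat6 (highest at rat 45, 1143) and Timp1 (highest at rat 45, 575). In the TBI thalamus they were Stat5a (lowest at rat 52, 336), Cish (highest at rat 45, 75.2) and Timp1 (highest at rat 45, 645). In the sham cortex they were Socs2 (highest at rat 34, 378), Cd44 (lowest at rat 34, 192) and Timp1 (highest at rat 50, 197). Rat 45 accounts for 5 of these 10 values, and its libraries hold the highest choroid plexus marker levels of the TBI animals.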

How the results depend on the processing

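At an adjusted p under 0.01, 3 genes were called in the cortex, 3 between regions in sham rats and 0 for the difference between regions. Without the filter on low values the difference between regions also gave 0. Leaving out single libraries gave 4 to 6 genes in the cortex, 5 in the thalamus, 0 to 2 for the difference between regions, and 4 to 6 between regions in sham rats and in TBI rats. The rat as a replicate block changed the calls of Stat3 and Socs3 between regions in TBI rats (6 genes in place of 4). It also changed that of Ptpn6 for the difference between regions (0.35, adjusted p = 0.0333). No other call changed among the 10 genes, or for that difference among the genes named from the lists by fold change. Calls of Jak2, Vegfa, Vim, Icam1 and Serpina3n were not examined under other settings. Other settings that turned calls of the 10 genes at the 0.05 threshold are given beside their values.

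Some uncalled values near 0 changed sign. For the difference between regions, Gfap went to -0.013 with TMM scaling and Stat5a to 0.025 without rat 45 in both regions. Without single libraries, that difference ranged from -0.12 to 0.073 for Gfap, from -0.089 to 0.032 for Stat5a and from -0.18 to 0.026 for Ctf1. Between regions without single libraries, the joined Cntf locus ranged from -0.033 to 0.011 in sham rats, Osmr from -0.11 to 0.027 in TBI rats, and Cntfr from -0.069 to 0.0099 in TBI rats. The cause was not tested. With 3 fragments at 2.06 to 3.76 normalized counts, Il6, Osm and Lif lay near that floor and were not tested, and neither was Clcf1 within the thalamus.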
